A study of Homo sapiens with 4 samples.

Results

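The genes described here are the histone genes of the human HIST clusters, which encode the linker histone H1 and the core histones H2A, H2B, H3 and H4. They were taken by name as every gene of the deposited table that begins with HIST1H, HIST2H, HIST3H or HIST4H, leaving out names marked as pseudogenes. Of 89 loci so named, 15 were left out and 74 remained, of 58825 genes in all. They comprised 6 H1, 17 H2A, 22 H2B, 14 H3 and 15 H4 genes. The HIST1 cluster on chromosome 6 held 55 of them and HIST2 on chromosome 1 held 14. HIST3, also on chromosome 1, held 4 and HIST4 on chromosome 12 held 1. The name rule kept 4 loci whose models the annotation calls pseudogenes, HIST2H2BA, HIST2H2BB, HIST2H2BD and HIST3H2BA.

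The cells were ARP1, an established human line of multiple myeloma, a cancer of antibody-secreting plasma cells. One group overexpressed RFWD2 and the other was wild type, with 2 libraries each. RFWD2, listed in the table under its current symbol COP1, encodes a ubiquitin ligase that sends proteins, among them transcription factors, to the proteasome. No other allele or agent is named for either group, and the sources used here do not give how RFWD2 was overexpressed, or whether in a clone or a pool. The libraries are called biological repeats without saying whether they were separate cultures, so p-values rest on a spread that may be partly technical.

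Replication-dependent histone genes are transcribed when DNA is copied in S phase, from short genes without introns that lie close together. Their mRNAs are the only known animal mRNAs that normally end without a poly(A) tail. A conserved stem-loop takes its place, is bound by the protein SLBP, and is cleaved just downstream with the help of the U7 small nuclear RNA. Some of the genes can also end further downstream at an ordinary poly(A) signal, chiefly in cells that have stopped dividing. The libraries were made from RNA bound to oligo-dT beads, per the labels' protocols, which also mention the fraction without poly(A). The values below are therefore those of the RNA that was carried through this selection, and tailed and untailed histone mRNA cannot be told apart in them.

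The stem-loop was found in the GENCODE release 29 transcripts of 34 of the 74 genes, and in 33 of the 58478 other genes of the table that have a transcript there, which is 0.0564%. Its search pattern is the histone 3′ stem-loop of 16 bases, read on the transcript strand only. No H1 model showed it, but those of HIST1H1A, HIST1H1B, HIST1H1C and HIST1H1D hold the coding part alone, in which no end could be searched. The 6 distinct forms are shown because they set H4 apart from the other classes in which one was found. Each is from 1 gene, with the stem-loop in capitals and 5 flanking bases on either side.

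HIST2H2AA3: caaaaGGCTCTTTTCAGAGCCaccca
HIST1H2BD: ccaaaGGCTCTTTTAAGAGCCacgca
HIST1H2AG: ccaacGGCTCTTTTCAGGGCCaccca
HIST1H3E: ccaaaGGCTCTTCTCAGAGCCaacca
HIST1H4H: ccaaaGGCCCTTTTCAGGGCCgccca
HIST1H4I: aaaaaGGCCCTTTTTAGGGCCcctaa

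The form of HIST2H2AA3 occurred in 18 genes of the H2A, H2B and H3 classes, and that of HIST1H2BD in 5 genes of H2B and H3. The form of HIST1H2AG was shared with HIST2H2BD, and that of HIST1H3E was in HIST1H3E alone. Both H4 forms were found in H4 genes and in no other class, that of HIST1H4H in 5 genes and that of HIST1H4I in 3. The remaining 40 genes have models that end earlier or lack the pattern: 32 models hold the coding part alone and 8 others showed no match. Among the 32 are HIST1H1C and HIST1H2BK, so no end sequence can be shown for the pair of genes with the highest levels.

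The same transcripts show which models run past the stem-loop and which carry a poly(A) signal near an end. In 24 genes a transcript with the stem-loop ran more than 100 bases past it, by 1729 bases in HIST2H2BE and by 1761 bases in HIST1H2AG. In 10 every transcript with the stem-loop ended within 100 bases of it. Transcripts without the stem-loop were not measured, such as the longest one of HIST1H2BD, 789 bases, a gene among these 10. The poly(A) signal AATAAA lay in the last 40 bases of a transcript in 23 genes (31.1%, against 37.0% of the other genes of the table). The 31.1% counts the 32 models of the coding part alone, so the 2 shares are not of like models. Among models that reach beyond the coding part, 23 had the signal and 19 did not. Of these 23 genes, 14 averaged at least 1 FPKM (fragments per kilobase of model and scaled to the mapped total of the library, the deposited unit, which is per length) and none was at 0 in all libraries. Of the 51 genes without it, 12 averaged at least 1 FPKM and 14 were at 0 throughout. Of those 51, however, 32 are the models of the coding part alone, HIST1H1C and HIST1H2BK among them, in which no end could be searched. The 23 genes with the signal summed to 268 and 144 FPKM in overexpressing libraries 1 and 2, against 197 and 142 FPKM in wild type libraries 1 and 2. The 19 genes without it whose models reach beyond the coding part summed to 32.6 and 27.1 FPKM in the overexpressing libraries, against 28.6 and 22.5 FPKM in the wild type ones. The signal did not always go with a long end. HIST2H2AA3 and HIST2H2AA4, whose models end 35 bases past the stem-loop, gave 145 and 51.2 FPKM of the first sum with overexpression. In wild type cells they gave 95.4 and 71.5 FPKM. HIST1H4J, also among the 23, ends 6 bases past the stem-loop. Its AATAAA begins before the stem-loop, so this match of letters marks no end past it.

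RFWD2 itself, read as COP1, had 13.5 and 13.9 FPKM in the overexpressing libraries, against 5.99 and 8.93 FPKM in the wild type ones. The groups did not overlap, with a log2 fold change of 0.86 ± 0.36 (SE), and the gene was not called (adjusted p = 0.9998, edgeR's quasi-likelihood test with Benjamini-Hochberg adjustment). Total estimated counts were 62143098 to 70713792 per library. Mitochondrial genes took 7.46% and 4.96% of the counts in overexpressing libraries 1 and 2, against 7.68% and 4.27% in wild type libraries 1 and 2, so this share moved with the library number and not with the group. All 10 plasma cell markers averaged at least 1 FPKM, and summed to 1754 and 1924 FPKM in the overexpressing libraries, against 1952 and 2273 FPKM in the wild type ones. The protocol text also speaks of adipose material: 4 of 6 adipocyte markers were at 0 in every library and the 6 together summed to no more than 0.063 FPKM in any. The 6 markers each of T and NK cells, monocytes, stromal and erythroid cells summed to between 0.11 and 1.64 FPKM in a library, with 2, 4, 4 and 2 of them at 0 throughout. Of these, the monocyte markers summed to 1.21 and 1.28 FPKM with overexpression, against 0.46 and 0.13 FPKM in wild type cells, and the stromal markers to 1.07 and 0.51 FPKM with overexpression, against 0.35 and 0.13 FPKM in wild type cells. Both sums moved with the group, and their part in the comparisons below was not tested.

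Histone gene levels were very unequal. Of the 74 genes, 26 averaged at least 1 FPKM over the 4 libraries (35.1%, against 19.1% of all genes in the table), 7 averaged at least 10 FPKM, and the median gene had 0.38 FPKM. Another 27 averaged under 0.1 FPKM, of which 14 had no count in any library. A count of 0 allows up to 3 counts in a library, counting error only. HIST1H2BK and HIST1H1C held 70.5% of the summed FPKM of all 74 genes. They ranked 121 and 190 by mean FPKM among the 28086 genes above 0, with 9720 to 14209 counts a library. Their models hold the coding part alone, 381 and 642 bases, and FPKM is per length of model. By estimated counts the pair held 26299 of 51302 and 19935 of 39727 in overexpressing libraries 1 and 2. In wild type libraries 1 and 2 it held 23456 of 46189 and 20149 of 37120. The shares of a class level given below are also of FPKM.

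Linker histone H1 binds the DNA that enters and leaves the nucleosome. HIST1H1C (ENSG00000187837, chr6:26055787-26056428), which encodes H1.2, is a histone gene known also for tailed transcripts, and it had 296 and 189 FPKM in the overexpressing libraries, against 205 and 188 FPKM in the wild type ones. Library 1 of the overexpressing cells was the high one and the groups overlapped. HIST1H1C made up 97.4% of the H1 level. HIST1H1D, encoding H1.3, had 3.81 and 5.66 FPKM with overexpression, against 2.72 and 3.42 FPKM in wild type cells. HIST1H1E, encoding H1.4, had 2.54 and 2.82 FPKM with overexpression, against 1.40 and 0.98 FPKM in wild type cells. In both of these genes the overexpressing libraries lay above the wild type ones. HIST1H1A, HIST1H1B and the testis gene HIST1H1T were at 0 in all 4 libraries.

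H2A pairs with H2B in the nucleosome. HIST2H2AA3 and HIST2H2AA4 are near-identical copies that share 100% and 96.8% of their 100-base windows with another histone gene. Reads could be split between them or counted in both, so the value of neither copy is secure. If reads were counted in both, their sum is too high. That sum was 145 and 51.2 FPKM in the overexpressing libraries, against 95.4 and 71.5 FPKM in the wild type ones, and it was 75.0% of the H2A level. Both wild type libraries lay between the 2 overexpressing ones. HIST1H2AG had 8.58 and 11.9 FPKM with overexpression, against 8.53 and 9.21 FPKM in wild type cells. HIST1H2AC had 10.1 and 10.3 FPKM with overexpression, against 8.21 and 7.68 FPKM in wild type cells. HIST1H2AC kept the groups apart by a narrow margin, and HIST1H2AG did not. The other 13 H2A genes averaged from 0 to 4.53 FPKM.

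HIST1H2BK (ENSG00000197903), the highest of all histone genes here and 87.1% of the H2B level, had 424 and 303 FPKM in the overexpressing libraries, against 383 and 305 FPKM in the wild type ones. The libraries numbered 2 gave nearly the same value in both groups. HIST1H2BJ had 24.8 and 11.8 FPKM with overexpression, against 20.5 and 10.3 FPKM in wild type cells. HIST2H2BE had 13.9 and 5.89 FPKM with overexpression, against 8.11 and 4.70 FPKM in wild type cells. In these 2 genes each library 2 lay below both libraries numbered 1. HIST1H2BD differed less between libraries, with 14.7 and 12.8 FPKM with overexpression, against 12.1 FPKM in both wild type libraries. HIST1H2BC had 1.15 and 1.41 FPKM with overexpression, against 0.46 and 1.34 FPKM in wild type cells. Among the 22 H2B genes, 10 averaged under 0.1 FPKM.

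H3 and H4 form the tetramer at the core of the nucleosome, and their summed levels were below those of the other classes. HIST1H3H, 59.8% of the H3 level, had 11.6 and 6.12 FPKM with overexpression, against 8.70 and 3.31 FPKM in wild type cells. HIST1H3D had 2.23 and 1.59 FPKM with overexpression, against 2.31 and 1.03 FPKM in wild type cells. Again each library 2 was the lower one of its group. The next H3 genes were HIST1H3F, with 0.36 and 0.98 FPKM with overexpression, against 1.01 and 0.93 FPKM in wild type cells, and the copies HIST2H3A and HIST2H3C, which share all their windows. Those copies summed to 1.75 and 1.80 FPKM with overexpression, against 1.05 and 1.17 FPKM in wild type cells. They lie opposite HIST2H4B and HIST2H4A on the other strand, and the sources used here do not give whether the counting used strand.

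Among H4 genes, HIST1H4I had 25.3 and 18.7 FPKM with overexpression, against 22.7 and 18.5 FPKM in wild type cells, and made up 44.6% of the class. The copies HIST2H4A and HIST2H4B, which share all their windows, summed to 21.6 and 13.7 FPKM with overexpression, against 17.9 and 9.83 FPKM in wild type cells. Separately the copies were uneven, with 8.39 FPKM for HIST2H4B in overexpressing library 2 and 3.35 FPKM in wild type library 2, while HIST2H4A had 5.32 and 6.48 FPKM in the same 2 libraries. HIST1H4H had 3.51 and 5.40 FPKM with overexpression, against 4.04 and 4.56 FPKM in wild type cells. Genes known mainly from the germ line were not detected beyond a trace: HIST1H1T, HIST1H2AA and HIST1H2BA were at 0, and HIST3H3 had 4 counts (0.093 FPKM) in overexpressing library 2 only.

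**Figure D1:**
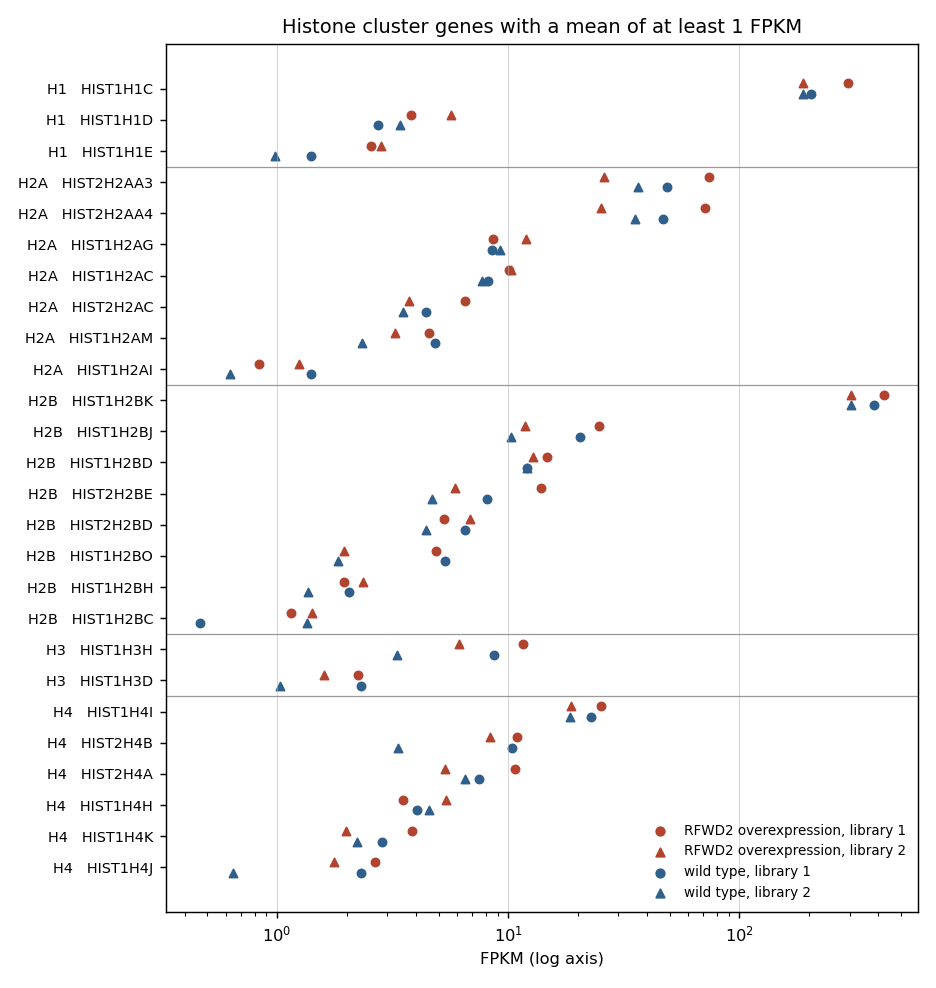
FPKM on a log axis for the 26 histone genes that averaged at least 1 FPKM, by class, with 1 point for each library: red for RFWD2 overexpression (drawn above) and blue for wild type, circles for library 1 and triangles for library 2. HIST1H2BK (303 to 424 FPKM) and HIST1H1C (188 to 296 FPKM) stand apart from the rest, and in most genes the triangles lie left of the circles of the same colour.

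Many H2A and H2B genes lie head to head, sharing the stretch from which both are transcribed in opposite directions. Counting starts at most 500 bases apart on opposite strands gave 13 such pairs, 1 of them with an H3 gene. In the coordinates of the table, HIST1H2BK at chr6:27146418-27146798 on the minus strand and HIST1H2AH at chr6:27147129-27147515 on the plus strand begin 331 bases apart, yet averaged 354 and 0.58 FPKM, a 606-fold difference. The ratio was 886 and 265 in the overexpressing libraries, against 1213 and 777 in the wild type ones, and without overexpressing library 2 the ratio of the means was 937. HIST1H2AH had 14 and 38 estimated counts in the overexpressing libraries, against 11 and 13 in the wild type ones. HIST1H2BJ and HIST1H2AG begin 292 bases apart and averaged 16.9 and 9.56 FPKM, a ratio of 1.76. Their longest transcripts differ in length, 950 and 2250 bases, so this ratio also rests on the division by length. HIST1H2BJ had 1766 and 946 estimated counts with overexpression, against 1649 and 834 in wild type cells. HIST1H2AG had 1445 and 2254 with overexpression, against 1623 and 1765 in wild type cells. The bases before the RefSeq starts of HIST1H2BK and HIST1H2BJ are shown because these neighbouring stretches carry the same 3 kinds of motif while the levels on their 2 sides differ by very different factors. Capitals mark 3 motifs on either strand: the TATA box as TATAAA, the box read by NF-Y as CCAAT, and the octamer read by OCT1 as ATTTGCAT. Where TATAAA and its reverse complement overlap, the capitals run together.

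HIST1H2BK: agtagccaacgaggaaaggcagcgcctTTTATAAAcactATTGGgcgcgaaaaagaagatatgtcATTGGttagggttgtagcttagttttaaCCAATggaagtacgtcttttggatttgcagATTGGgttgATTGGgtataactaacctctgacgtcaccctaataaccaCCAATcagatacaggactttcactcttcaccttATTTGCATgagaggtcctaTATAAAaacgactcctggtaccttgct
HIST1H2BJ: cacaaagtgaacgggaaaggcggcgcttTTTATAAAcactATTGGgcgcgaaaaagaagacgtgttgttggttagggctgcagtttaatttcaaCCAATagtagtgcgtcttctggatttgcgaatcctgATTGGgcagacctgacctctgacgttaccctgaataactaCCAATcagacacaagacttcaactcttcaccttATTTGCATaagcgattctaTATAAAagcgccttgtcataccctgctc

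These are the 250 bases before the starts in RefSeq on GRCh38.p14, chr6:27146859-27147108 and chr6:27132796-27133045, both on the minus strand and read 5′ to 3′ towards the H2B gene. The TATAAA nearest the start begins 27 bases before it in HIST1H2BK and 28 bases before it in HIST1H2BJ, and the octamer 46 and 47 bases before it. The far TATAAA, towards the H2A gene, begins 221 and 220 bases before it. HIST1H2BK has 6 CCAAT matches over both strands, 2 reading with the gene and 4 against it. HIST1H2BJ has 4, 2 each way.

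RefSeq gave a promoter, here 250 bases before to 50 after the start, for 65 of the 74 genes, matched by Ensembl identifier or, where that had no current symbol, by name and overlapping position. TATAAA on either strand was in 64.6% of them, against 11.5% of all 35116 promoters of the same length. CCAAT was in 84.6%, against 34.6%, and ATTTGCAT in 26 of the 65, against 1.77%. The classes differed: CCAAT was in every H1, H2A, H2B and H3 promoter (6, 16, 18 and 12) but in 3 of 13 H4 promoters, and the octamer was in 11 of 16 H2A and 14 of 18 H2B promoters, 1 of 12 H3 promoters and no H1 or H4 promoter. HIST1H2AD and HIST1H3D are given the same stretch in RefSeq, which was counted for each, and in 5 genes the RefSeq start lies more than 500 bases from that of the table's model. These are matches of letters and show no binding.

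Other head-to-head pairs also differed in how unequal they were. HIST1H2BC had 1.09 FPKM and HIST1H2AC 9.07 FPKM, a ratio of 8.30. HIST2H2AA3 had 46.1 FPKM and the pseudogene model HIST2H2BD 5.75 FPKM, but HIST2H2AA3 shares reads with HIST2H2AA4, so this pair's ratio is uncertain. HIST2H2BE and HIST2H2AC had 8.16 and 4.53 FPKM, a ratio of 1.80. Their longest transcripts are of unlike length, 2194 and 390 bases, so this ratio rests on the division by length. HIST2H2BE had 879 to 2286 estimated counts a library, against 117 to 190 for HIST2H2AC. HIST1H2AM and HIST1H2BO were nearly equal on average at 3.73 and 3.50 FPKM, with a ratio of 0.91 to 1.65 by library. HIST1H2AM overlaps HIST1H3J on the same strand and shares 84.0% of its windows with it, so this ratio is uncertain too. Of these pairs, the ones with similar FPKM were not those with the closest starts. HIST2H2AA3 and HIST2H2BD begin 139 bases apart and HIST1H2AM and HIST1H2BO 314. HIST3H2A with HIST3H2BB and HIST1H2AA with HIST1H2BA were at or near 0 on both sides.

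**Figure D2:**
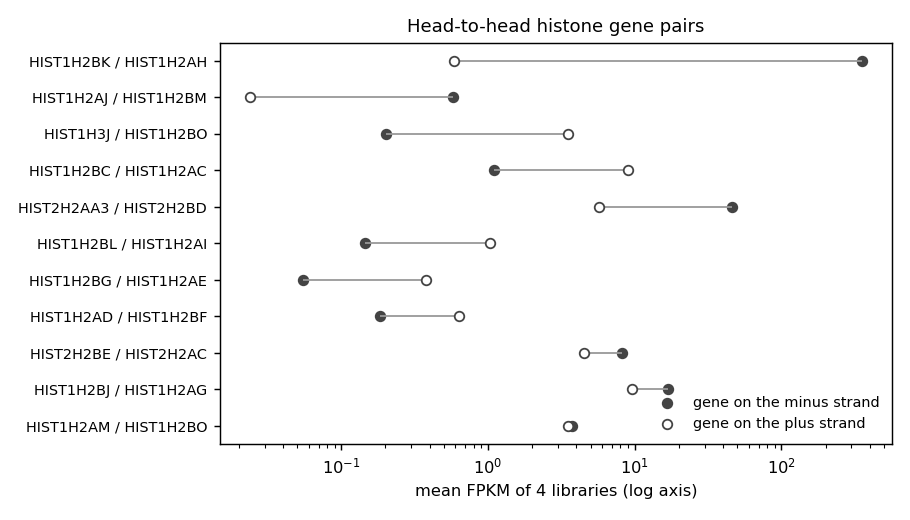
Mean FPKM of the 4 libraries on a log axis for the 11 head-to-head pairs with both genes above 0.01 FPKM, with a filled point for the gene on the minus strand and an open point for the gene on the plus strand. The line between the points is longest for HIST1H2BK and HIST1H2AH (606-fold) and nearly absent for HIST1H2AM and HIST1H2BO (1.07-fold).

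The comparison the study was built on sets RFWD2-overexpressing cells against wild type. Summed over all 74 genes, the histone level was 1050 and 687 FPKM in the overexpressing libraries, against 840 and 675 FPKM in the wild type ones, so wild type library 1 lay between the overexpressing ones. The log2 ratio of the means was 0.20, with 0.32 between the libraries numbered 1 and 0.02 between those numbered 2. Without overexpressing library 1 it was -0.14, and without overexpressing library 2 it was 0.47. A difference in the number of cells that make these mRNAs and one in RNA per cell cannot be told apart in bulk libraries.

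By class, H1 summed to 250 ± 74 FPKM with overexpression, against 201 ± 12 FPKM in wild type cells, and H2A to 131 ± 66 FPKM with overexpression, against 110 ± 20 FPKM in wild type cells (SD over libraries, n = 2 each). H2B summed to 421 ± 103 FPKM with overexpression, against 391 ± 69 FPKM in wild type cells. H3 summed to 14.1 ± 3.7 FPKM with overexpression, against 10.8 ± 4.8 FPKM in wild type cells, and H4 to 51.5 ± 11 FPKM with overexpression, against 43.9 ± 11 FPKM in wild type cells. Each class was higher on average in the overexpressing cells, by 0.11 (H2B) to 0.38 (H3) on the log2 scale, and in each the libraries of the groups overlapped. With 2 libraries a group an exact permutation test cannot go below p = 0.333 and none was used for these sums. Only H2A went opposite ways in the 2 numbers, with log2 ratios of 0.51 for library 1 and -0.18 for library 2. Single libraries set the direction: without overexpressing library 1 the ratio was -0.02 for H1, -0.38 for H2A and -0.17 for H2B. Without wild type library 1 the H3 ratio was 0.93, and without wild type library 2 it was -0.014. The H1 genes other than HIST1H1C had a ratio of 0.80.

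**Figure D3:**
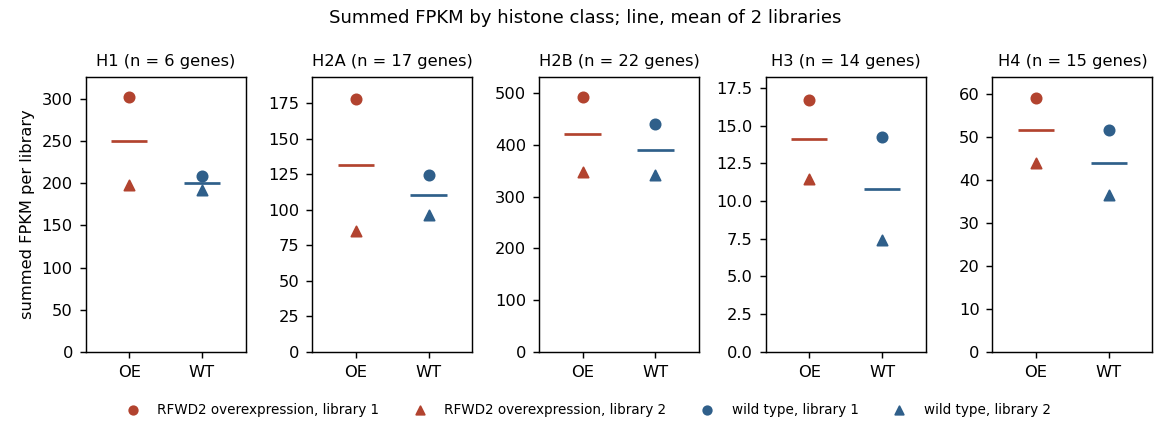
Summed FPKM of each histone class, with 1 panel per class and its own axis from 0: RFWD2 overexpression (OE, red) left of wild type (WT, blue), circles for library 1 and triangles for library 2, and a line at the mean of the 2 libraries. In every panel and both groups the triangle is below the circle, and the overexpressing and wild type points overlap in range.

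Gene by gene, 46 of the 74 had enough counts to be tested and 28 did not. None of the 46 was called by edgeR's quasi-likelihood test at an adjusted p under 0.05, as none of the 18873 genes of the table was (0%), and none reached an unadjusted p under 0.05, against 1.83% of all genes tested. DESeq2 called none of the histone genes either, and 0.269% of the genes to which it gave an adjusted p. The median standard error of a histone gene's log2 fold change was 0.68, and ranged from 0.38 to 1.81.

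The fold changes leaned upward with overexpression without passing a test. The median log2 fold change of the 46 genes was 0.26, against 0.01 for all genes tested, with a range of -1.07 to 1.23. It was above 0 in 38 of 46 genes (82.6%, against 51.6% of all genes). Both overexpressing libraries had a higher FPKM than both wild type libraries in 11 of 46 genes (23.9%, against 12.8%), and both had a lower one in 0 of 46 (against 7.73%). On counts scaled to the library total (CPM) in place of FPKM these counts were 9 (against 10.7% of all genes) and 1 (also against 10.7%). Histone genes are neighbours that share promoters, copies and libraries, so 38 genes above 0 are not 38 independent observations. The lean depended on single libraries: the median was -0.01 without overexpressing library 1 and 0.01 without wild type library 2, and 0.71 without overexpressing library 2 or without wild type library 1.

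The 11 genes whose libraries did not overlap were spread over the classes, with HIST1H1D and HIST1H1E of H1, HIST1H2AC and HIST1H2AH of H2A, HIST1H2BD, HIST1H2BF and HIST2H2BF of H2B, HIST2H3A and HIST2H3C of H3, and HIST1H4C and HIST1H4E of H4. Of these, 7 averaged under 1 FPKM. The smallest unadjusted p was that of HIST1H1E, with a log2 difference of 1.11 ± 0.57 (SE), and did not pass (adjusted p = 0.9998, edgeR). HIST1H4E had 0.28 and 0.35 FPKM with overexpression, against 0.12 and 0.13 FPKM in wild type cells, from 16 to 44 counts a library. It was the only histone gene at least 2-fold higher within both library numbers (2.74% of all genes were), and none was at least 2-fold lower in both (1.41% of all genes). HIST2H2BF had 0.54 and 0.52 FPKM with overexpression, against 0.24 and 0.32 FPKM in wild type cells, for a log2 fold change of 0.90 ± 0.55. Its model overlaps FCGR1A on the other strand and a further model on its own, so its reads are not all certain to be its own.

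Among the most abundant genes HIST1H2BK had a log2 fold change of 0.05 ± 0.42 and HIST1H4I of 0.07 ± 0.45 (SE). HIST1H1C had one of 0.30 ± 0.43, and HIST2H2AA3 of 0.25 ± 0.67. The 26 genes with at least 1 FPKM had a median of 0.24 and the 20 tested genes below it 0.53. The corresponding medians of all genes tested were -0.01 and 0.10. The 6 genes known for tailed transcripts are HIST1H1C, HIST1H2AC, HIST1H2BC, HIST1H2BD, HIST1H2BK and HIST2H2BE. Their median was 0.30 and all 6 values were above 0, as were 51.6% of all genes tested. HIST1H2AC and HIST1H2BD kept the groups apart in FPKM. The rise was that of library 1: the median difference of the 6 in log2 CPM was 0.41 within library 1 and -0.017 within library 2. In library 2 only HIST1H2AC and HIST2H2BE were above 0. By the end of the model, the 22 tested genes with AATAAA near an end had a median of 0.26 and the 9 without it whose models reach beyond the coding part 0.50. The 15 tested genes whose models hold the coding part alone had 0.27.

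The median difference of the histone genes, overexpression minus wild type in log2 CPM, was 0.25 within library 1 and 0.42 within library 2. For the 26 genes with at least 1 FPKM these medians were 0.28 and 0.19. For the 20 tested genes below it they were 0.24 and 0.68, so the higher median of library 2 was that of weakly expressed genes. Of the 46 genes, 19 were higher with overexpression within both numbers (41.3%, against 26.1% of all genes) and 3 were lower in both (against 27.7%). Single genes could differ between the 2 numbers: the difference of HIST1H4C was 0.16 in library 1 and 2.36 in library 2, and that of HIST2H2AA3 was 0.60 in library 1 and -0.58 in library 2.

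**Figure D4:**
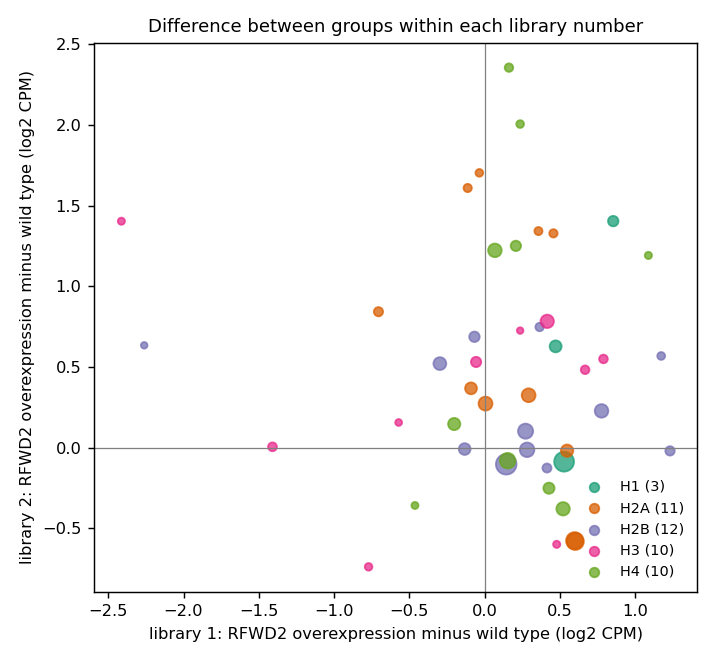
Difference between RFWD2 overexpression and wild type in log2 CPM for the 46 tested histone genes, within library 1 (horizontal) and library 2 (vertical), with colour for the class and a larger point for a higher mean FPKM (HIST2H2AA3 and HIST2H2AA4 coincide). The upper right field holds 19 genes and the lower left 3, and HIST2H2AA3 (0.60 and -0.58) lies right of 0 and below it.

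The histone genes also differed between the 2 libraries of a group. In both groups library 2 was lower than library 1 in 30 of 46 genes (65.2%, against 36.2% of all genes), and higher in 5 (10.9%, against 39%). The median difference, library 2 minus library 1 in log2 CPM, was -0.50 in overexpressing cells and -0.62 in wild type cells, while that of all genes tested was 0.04 and 0.02. Among the 26 genes with at least 1 FPKM, 20 were lower in library 2 of both groups and 1 was higher. HIST1H2BJ, HIST1H2BO, HIST1H3B, HIST1H3H, HIST1H4D and HIST2H2BE were at least 2-fold lower in both, against 5.86% of all genes. On FPKM, 23 of 46 genes were lower in library 2 of both groups, against 25.8% of all genes. The number of a library has no stated meaning, 1 library carries each number in each group, and no test was made of this contrast. It was noticed in these values.

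Genes that work in S phase went the other way. The 26 listed are mostly replication factors and nucleotide synthesis enzymes, with SLBP and UHRF1 beside them. Of these, 18 were higher in library 2 of both groups (against 39% of all genes) and 5 lower (against 36.2%). Their median differences were 0.91 in overexpressing cells and 0.39 in wild type cells. This was not particular to them, though the lists that follow are not wholly separate. SLBP is also on that of 3′ end processing and MCM2 on that of histone chaperones. Of 19 factors of histone mRNA 3′ end processing 14 were higher and 4 lower, and of 24 histone chaperones 16 and 3. Of 12 factors of histone mRNA decay 7 were higher and 3 lower, with medians of 1.25 and 0.53. Of 13 factors of histone gene transcription 5 were higher and 5 lower. PCNA, the sliding clamp of DNA polymerases, had 39.9 and 94.3 FPKM in overexpressing libraries 1 and 2, against 56.1 and 72.0 FPKM in wild type libraries 1 and 2. SLBP, which binds the stem-loop, had 26.9 and 57.2 FPKM with overexpression, against 31.8 and 46.4 FPKM in wild type cells. NPAT, the coactivator of histone gene transcription, had 0.43 and 1.89 FPKM with overexpression, against 0.55 and 1.31 FPKM in wild type cells. These 3 genes were chosen after their values were seen. Of the histone genes themselves HIST1H1D, an H1 gene, was one of the few higher in library 2 of both groups. The part of the mitochondrial share, of depth or of the poly(A) selection in this contrast was not tested.

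**Figure D5:**
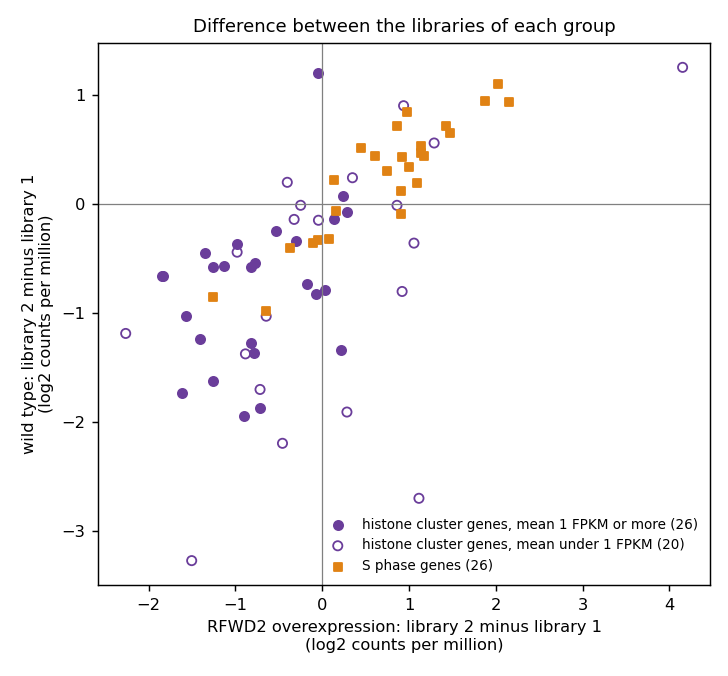
Library 2 minus library 1 in log2 CPM, in RFWD2-overexpressing cells (horizontal) and in wild type cells (vertical), for 26 histone genes with at least 1 FPKM (filled violet), 20 histone genes below it (open violet) and 26 S phase genes (orange squares). Most filled violet points lie in the lower left field and most squares in the upper right.

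Between the groups, none of the S phase genes was called by edgeR or DESeq2 and none had an unadjusted p under 0.05. Their median log2 fold change was -0.16, with 20 of 26 below 0. The median difference was -0.46 within library 1 and 0.03 within library 2. GINS2, a subunit of the replicative helicase complex, had 16.9 and 23.9 FPKM with overexpression, against 25.1 and 28.4 FPKM in wild type cells. CDC45 and MCM5, of the same complex, had log2 fold changes of -0.46 ± 0.42 and -0.32 ± 0.32 (SE). GINS2 and MCM5 kept the groups apart.

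The replication-independent variants are the counterparts made through the cell cycle from ordinary tailed mRNAs. None of 12 was called (0 with an unadjusted p under 0.05 by edgeR, 0 called by DESeq2), with a median log2 fold change of 0.08. The linker variant H1F0 lay above HIST1H1C in every library, and the linker variant H1FX did in all but wild type library 2. H1F0 had 349 and 788 FPKM with overexpression, against 630 and 510 FPKM in wild type cells. H1FX had 336 and 241 FPKM with overexpression, against 399 and 174 FPKM in wild type cells. These 2 genes were chosen after their values were seen. H2AFZ, encoding H2A.Z, had 75.8 and 149 FPKM with overexpression, against 129 and 169 FPKM in wild type cells. H2AFJ had 75.4 and 30.0 FPKM with overexpression, against 48.0 and 31.8 FPKM in wild type cells. H2AFZ was higher and H2AFJ lower in library 2 of each group. The macroH2A genes H2AFY2 and H2AFY had log2 fold changes of 1.04 ± 0.74 and -0.27 ± 0.34.

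The genes that make and destroy histone mRNA were measured as well, and edgeR and DESeq2 called none of them. All 19 factors of 3′ end processing were tested, with a median log2 fold change of -0.07. SNRPD3 and SNRPB, Sm proteins of small nuclear ribonucleoproteins, had -0.44 ± 0.46 and -0.23 ± 0.32, and CPSF4 and WDR33, of the poly(A) cleavage complex, -0.30 ± 0.38 and -0.19 ± 0.35. Of the 13 factors of histone gene transcription, with a median of 0.04, CRAMP1 had 2.16 and 4.20 FPKM with overexpression, against 5.57 and 5.93 FPKM in wild type cells. The log2 difference was -0.94 ± 0.39 (unadjusted p = 0.055, adjusted p = 0.9998, edgeR), and its groups did not overlap. HINFP, which drives H4 genes, had 3.42 and 2.83 FPKM with overexpression, against 2.34 and 2.001 FPKM in wild type cells. E2F4 and E2F3 had -0.51 ± 0.36 and -0.26 ± 0.45.

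Among 12 factors of histone mRNA decay, with a median of 0.01, UPF1, a helicase recruited to the stem-loop complex when replication stops, had 32.4 and 17.5 FPKM with overexpression, against 18.4 and 18.2 FPKM in wild type cells. SMG1, DCP2 and PNPT1 had log2 fold changes of -0.34 ± 0.60, 0.45 ± 0.86 and -0.25 ± 0.69. The 24 histone chaperones and carriers had a median of -0.07. IPO4, an importin that carries H3 and H4, had 11.5 and 11.9 FPKM with overexpression, against 13.9 and 18.1 FPKM in wild type cells. NAP1L4, CHAF1B and RBBP4, chaperones or chaperone subunits, had -0.47 ± 0.35, -0.49 ± 0.41 and -0.36 ± 0.34. In none of these 4 lists did a gene reach an unadjusted p under 0.05.

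RNAs that normally carry no poly(A) tail and are not histone mRNAs were few and did not move evenly. Of 24 such RNAs in the table, 9 were tested, with a median log2 fold change of 0.52 and 7 above 0. The median difference was 0.03 within library 1 and 0.78 within library 2. They summed to 59.0 and 50.7 FPKM in the overexpressing libraries, against 44.9 and 28.2 FPKM in the wild type ones. RMRP, the RNA of the RNase MRP complex, had 2.61 and 4.20 FPKM with overexpression, against 0.32 and 0.66 FPKM in wild type cells, which gave a log2 difference of 2.68 ± 0.77 (unadjusted p = 0.013, adjusted p = 0.9998, edgeR). SCARNA12, a guide RNA of Cajal bodies, had 4.96 and 6.17 FPKM with overexpression, against 1.02 and 1.59 FPKM in wild type cells, which gave a log2 difference of 2.04 ± 0.60 (unadjusted p = 0.016, adjusted p = 0.9998, edgeR). RN7SL1, the RNA of the signal recognition particle, and RPPH1, that of RNase P, had 0.57 ± 0.63 and 0.39 ± 0.53. These 2 of 9 genes with an unadjusted p under 0.05 stand beside 1.83% of all genes. Whether untailed RNA was carried over to a different extent into the libraries was not tested.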

How the data were processed

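The authors deposited 1 table with estimated counts and FPKM per gene and library, per the file headers. Tools listed, without roles, in the submitters' processing notes are Bowtie 0.12.2, StringTie 1.3.0 and HISAT2 2.0, beside the mouse build mm8. The table holds human identifiers, and GENCODE release 29 (GRCh38) has all 74 histone genes, 72 of them at identical coordinates. The counts are whole but were treated as estimates. Deposited FPKM values of 0.0001 were set to 0. The sources used here do not give how reads from copies or overlapping models were assigned, or whether by strand.

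Groups came from the labelled genotype. All genes were tested together with edgeR 4.0.16 (R 4.3.3; quasi-likelihood test, TMM, default filter, no block, Benjamini-Hochberg over 18873 genes, threshold 0.05). Alternatives were DESeq2 1.42.0, limma 3.58.1 on log2(FPKM + 1) and log2(FPKM + 0.1), other scalings, no filter, a replicate block and leaving out each library. The fits were tested on simulated data. Differences within a number are of log2 CPM (prior count 2). Shared windows were sought among HIST loci only.

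The histone genes and the other lists were chosen with earlier results of these data known. Genes named are RFWD2, the 4 highest per class, those known for tailed or germ line transcripts, the 6 with the smallest p, and up to 4 per list by smallest p, beside those said to be chosen later and the genes of a stated count or pair. Of these, 1 gene of the S phase list is not reported here.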

Additional observations from a re-analysis of the deposited data

How the results depend on the processing

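No histone gene and no gene of the other lists was called under any alternative run. Of 560 alternative values of the log2 fold changes of 52 single genes, 523 kept their direction and 37 did not. Over the whole table DESeq2 called 55 genes, edgeR without a filter on low counts 8, and edgeR without 1 library 73 to 183, where a lone library is assumed to vary like the other group. The median log2 fold change of the histone genes was 0.17 to 0.28 under the other tools, scalings and filters and -0.011 to 0.71 without 1 library. Without 1 library the log2 ratio of summed FPKM was -0.022 to 0.59 for H1, -0.38 to 0.69 for H2A and -0.014 to 0.93 for H3, and that of H1 without HIST1H1C was 0.80. At least 0.1 FPKM was reached on average by 47 histone genes and at least 10 FPKM by 7. On CPM, a scale chosen after seeing the data, 1 histone gene had both overexpressing libraries below both wild type ones. HIST1H4H, near 0, changed sign with upper quartile factors (0.0023) and with limma (0.023 and 0.022).

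Leaving out 1 library reversed single genes, the cause of which was not tested beyond the library left out. Their log2 fold changes ran over -0.28 to 0.71 for HIST1H1C, -0.95 to 0.90 for HIST2H2AA3, -0.94 to 0.90 for HIST2H2AA4, -0.42 to 0.41 for HIST1H2BK, -0.65 to 0.97 for HIST1H2BJ, -0.14 to 0.41 for HIST1H2BD, -0.38 to 1.22 for HIST2H2BE, -0.25 to 1.55 for HIST1H3H, -0.40 to 1.01 for HIST1H3D, -0.38 to 0.41 for HIST1H4I, -0.24 to 1.63 for HIST2H4B, -0.62 to 0.74 for HIST2H4A and -0.16 to 0.11 for HIST1H4H. Outside the histone genes they ran over -0.66 to 1.02 for H2AFJ, -0.56 to 0.013 for CPSF4, -0.42 to 0.0086 for WDR33, -0.77 to 0.12 for E2F3, -0.29 to 0.95 for UPF1, -1.28 to 0.22 for SMG1, -1.46 to 1.24 for DCP2, -1.35 to 0.38 for PNPT1 and -0.041 to 1.31 for RN7SL1.

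The libraries share replicate numbers, but the labels do not say that a number marks a shared day or culture, and there are 2 pairs. Deviations from the group means correlated between the groups at r = 0.557 over 11229 genes. A replicate block called 0 histone genes and 0 of all genes, with a median log2 fold change of 0.24 for the histone genes, and reversed DCP2 (-0.022).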

Other observations

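The 15 HIST loci left out as pseudogenes by name were mostly silent, with 9 of them at 0 in all 4 libraries. HIST1H3PS1 was the highest, with 1.20 and 1.89 FPKM in the overexpressing libraries, against 1.43 and 0.71 FPKM in the wild type ones. Together the 15 summed to 1.95 and 2.94 FPKM with overexpression, against 1.83 and 1.43 FPKM in wild type cells.

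Along chromosome 6 the widest gap between neighbouring HIST1 genes, 840259 bases, lies between HIST1H4H and HIST1H2BJ. The 34 genes at smaller coordinates summed to 340 and 237 FPKM with overexpression, against 242 and 223 FPKM in wild type cells, with a median log2 fold change of 0.31 over 19 tested. The 21 genes beyond the gap summed to 514 and 365 FPKM with overexpression, against 463 and 355 FPKM in wild type cells, with a median of 0.17 over 14 tested. Among those tested, both overexpressing libraries lay above both wild type ones in 7 of 19 genes before the gap and in 1 of 14 beyond it, against 12.8% of all genes, and this difference was not tested.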
